A study of Homo sapiens with 8 samples.

Results

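The genes described here were 10 members of the heat shock system, among 58219 genes listed for each library. They were chosen by name and not by a threshold on their values, though earlier results of these data were known. They were the transcription factor HSF1, the HSP70 chaperones HSPA1A, HSPA1B and HSPA8, the HSP110 chaperone HSPH1, the J-domain protein DNAJB1, the HSP70 co-chaperone BAG3, the HSP90 chaperone HSP90AA1, the small heat shock protein HSPB1 and HSPE1. HSPE1 encodes the HSP10 co-chaperonin, which works inside mitochondria, so that 9 of the 10 are cytosolic or nuclear and HSPE1 is included as a heat shock gene. All 10 passed the filter on low counts. In GRCh38, HSPA1A and HSPA1B lie close together at chr6:31815543-31817946 and chr6:31827738-31830254, HSPA8 at chr11:123057489-123063230, HSPH1 at chr13:31134973-31162388, DNAJB1 at chr19:14514769-14560391, HSPB1 at chr7:76302673-76304295, HSP90AA1 at chr14:102080742-102139699, BAG3 at chr10:119651380-119677819, HSPE1 at chr2:197500140-197503449 and HSF1 on chromosome 8.

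Heat shock proteins keep other proteins folded. In resting cells HSF1 is held inactive by chaperones. When misfolded proteins draw the chaperones away, HSF1 forms a trimer, binds heat shock elements, which are inverted repeats of the letters GAA, and raises transcription of HSP70, HSP90, J-domain and small heat shock genes. J-domain proteins such as DNAJB1 hand substrates to HSP70, HSP110 proteins release its nucleotide, and HSP90 takes over part of its clients. Myeloma cells are malignant plasma cells, which make and secrete large amounts of immunoglobulin and carry a heavy load of protein folding.

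RNA was sequenced from H929 and KMS11, established multiple myeloma cell lines that are both positive for the t(4;14) translocation. Each line was grown in RPMI medium with serum and kept for 24 h in 2 µM fluvastatin, a statin that blocks HMG-CoA reductase, or in ethanol, the solvent. There were 2 replicates of each line and treatment, which gives 4 groups and 8 libraries. The study's methods call the replicates biological, but nothing states what set them apart, so that p-values measure the spread between these libraries. Each line stands for itself as a model, and no line without t(4;14) was compared here.

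Libraries held 26702515 to 41910446 expected counts. Protein-coding genes took 85.2% to 86.1% of the counts in H929 and 90.8% to 91.4% in KMS11, apart from the first KMS11 fluvastatin library at 88.1%, and the 2 libraries of that group also differed from each other more than those of any other group (SD of the log2 ratio 0.252, against 0.126 to 0.182). Summed TPM (a level per transcript length, scaled to a fixed total) of 5 plasma cell markers was 1524 to 1733 in H929 and 549 to 827 in KMS11. NSD2, which t(4;14) activates, was at 83.6 to 141 TPM, and FGFR3, its other target, was at 5.33 to 10.8 TPM in H929 and at 75.3 to 95.2 TPM in KMS11. Of the markers of other blood cells, 3 B cell genes summed to at most 0.09 TPM, 3 myeloid genes to at most 0.17 TPM, with CD14 and CSF1R at 0, and 3 T cell genes to at most 3.54 TPM, nearly all of it CD3E.

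The upstream letters of these genes are shown because a heat shock element is the feature the family is known to share. RefSeq windows of 300 bases around annotated starts (GRCh38.p14) were available for 9 of the 10 genes and were searched on both strands for GAANNTTC and TTCNNGAA, which are pairs of inverted units, and for the same motifs extended to 3 units. A pair stood in 13.5% of all 34943 windows and 3 units stood in 0.489%. HSPA1A, HSPA1B, HSPA8, DNAJB1, HSPB1 and HSP90AA1 held a pair, and HSPA8 and HSP90AA1 held 3 units. No match was found in the windows of HSPH1, BAG3 and HSPE1, which says only that these letters are not in these windows. The HSPE1 window, chr2:197500129-197500428, lies nearly all inside the gene listed from 197500140, so that the bases before that start were hardly part of it. The second of the 2 windows of HSPD1, the neighbour of HSPE1, is chr2:197499791-197500090. It held overlapping matches of 3 units 245 and 240 bases before the HSPD1 start. These matches thus also stand before the listed start of HSPE1. In the stretches below, 5′ to 3′ on the gene's strand, capitals mark the matched letters.

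HSPA1A, chr6:31815417-31815464, plus strand: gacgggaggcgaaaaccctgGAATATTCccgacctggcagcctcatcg
HSPA1B, chr6:31827613-31827660, plus strand: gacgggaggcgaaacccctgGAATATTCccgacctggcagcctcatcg
HSPA8, chr11:123062159-123062386, minus strand: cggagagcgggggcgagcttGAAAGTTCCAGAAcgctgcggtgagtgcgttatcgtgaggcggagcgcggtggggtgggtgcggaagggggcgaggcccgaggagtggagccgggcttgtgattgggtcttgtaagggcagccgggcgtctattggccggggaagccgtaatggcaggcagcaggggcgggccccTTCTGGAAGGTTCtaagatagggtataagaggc
HSPB1, chr7:76302471-76302518, plus strand: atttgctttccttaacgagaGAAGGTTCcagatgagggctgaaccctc
HSP90AA1, chr14:102087085-102087152, minus strand: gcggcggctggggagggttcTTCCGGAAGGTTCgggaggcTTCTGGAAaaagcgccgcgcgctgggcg

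The stretches of HSPA1A and HSPA1B differed at 1 of 48 bases, and their matches began 106 and 105 bases before the start. The 2 matches of 3 units in HSPA8 began 230 and 55 bases before the start. The match of HSP90AA1 is in the second of its 2 windows and began 88 bases before the start, with a further pair at 68. DNAJB1 held pairs 77 and 47 bases before the start in the second of its 3 windows. The start is in each case the RefSeq start of that window. For HSPA8, HSP90AA1 and DNAJB1 these matches lie inside the gene spans listed above and not before them. HSPB1 held 1 pair, 182 bases before the start.

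In ethanol, HSPA8, the constitutive HSP70 of the cytosol, had the highest level of the 10 genes in both lines. Per transcript length, H929 cells held 1177 ± 60.4 TPM of HSPA8 (SD, n = 2), followed by 200 ± 17.5 TPM of HSPE1, 163 ± 13.1 of HSP90AA1, 26.7 ± 0.643 of HSPH1, 19.4 ± 1.78 of DNAJB1, 18.4 ± 3.53 of HSPA1B, 6.53 ± 1.31 of HSF1, 2.89 ± 0.672 of HSPB1, 2.80 ± 0.771 of BAG3 and 0.495 ± 0.0495 of HSPA1A. In this order DNAJB1 and HSPA1B, and HSPB1 and BAG3, did not differ by more than their SDs. In KMS11 cells the order was HSPA8 at 1569 ± 327 TPM, HSPE1 at 485 ± 36.0, HSP90AA1 at 340 ± 65.4, HSPH1 at 84.1 ± 19.4, DNAJB1 at 23.3 ± 6.12, HSPB1 at 18.0 ± 0.474, HSF1 at 15.5 ± 2.98, HSPA1B at 2.82 ± 1.41, BAG3 at 2.56 ± 0.679 and HSPA1A at 1.84 ± 1.07. Neighbours from DNAJB1 to HSF1, and from HSPA1B to HSPA1A, did not differ by more than their SDs there. The top 4 places were thus the same in both lines, while HSPA1B and HSPB1 changed places.

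The lines were then compared in ethanol with edgeR, on CPM (counts scaled by TMM to a common library size), calling genes at an adjusted p under 0.05. Of the 10 genes, 4 were higher and 2 lower in KMS11, beside 35.6% higher and 36.4% lower of all 13129 genes tested (72% in all). HSPB1, which holds unfolding proteins, was 4.21-fold higher in KMS11 (adjusted p = 0.000254) and HSPH1 was 2.35-fold higher (adjusted p = 1.08e-05). HSPE1 was 1.69-fold higher (adjusted p = 0.000205) and HSP90AA1 1.45-fold (adjusted p = 0.0038). HSPA1B, a stress-inducible HSP70, was 9.47-fold lower in KMS11 (adjusted p = 7.56e-05). Its near-identical partner HSPA1A had a log2 difference of 1.36 (adjusted p = 0.0721), called in 7 of 16 other settings, and the summed pair was lower in KMS11 by log2 -2.70 (adjusted p = 0.000421). HSF1 had a log2 difference of 0.49 (adjusted p = 0.0666) and was called higher in 8 of 16 other settings, up to 1.57 with trends on GC content and length removed (adjusted p = 2.13e-07). BAG3, which links HSP70 to selective autophagy, was 1.54-fold lower (adjusted p = 0.0423). The call of HSP90AA1 was lost once trends with GC content and length were removed (log2 0.15), and BAG3 lost its call in that setting (log2 -0.08) and on TPM (log2 -0.09), and also with library size scaling (adjusted p = 0.0557). HSP90AA1 was also lost without the first KMS11 ethanol library (adjusted p = 0.0554), and BAG3 without the first H929 (0.331) or the second KMS11 ethanol library (0.243). The TPM scale moved the median of all genes in this comparison by 0.33 (log2), and on it HSPA8 and DNAJB1 turned from -0.16 and -0.26 to 0.40 and 0.23 without being called on either scale.

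**Figure D1:**
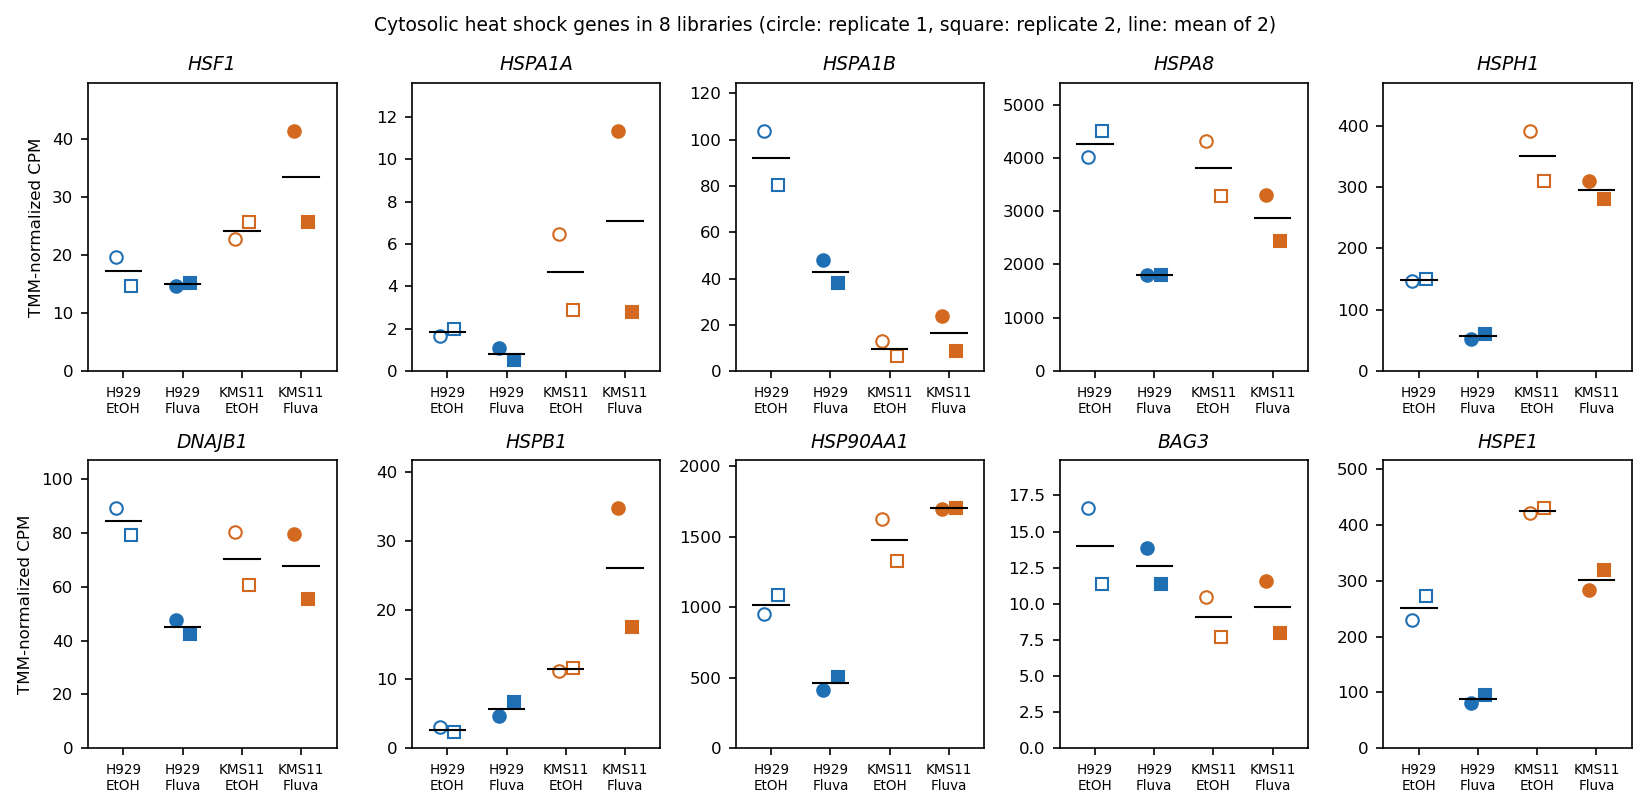
TMM-normalized CPM (linear axis from 0, 1 panel per gene) of the 10 heat shock genes in each library, with circles for replicate 1, squares for replicate 2, open symbols for ethanol, filled symbols for fluvastatin and a line at the mean of 2. The H929 fluvastatin libraries sit below both H929 ethanol libraries for 7 genes, from HSPA8 at 1806 and 1810 CPM to HSPA1A at 1.10 and 0.524 CPM, and the first KMS11 fluvastatin library is the highest of the KMS11 libraries for HSF1, HSPA1A, HSPA1B, HSPB1 and BAG3.

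In H929 cells, most of this set was lower in fluvastatin. HSPA1B, HSPA8, HSPH1, DNAJB1, HSP90AA1 and HSPE1 fell, HSPB1 rose, and HSF1, HSPA1A and BAG3 did not pass the test. Of all genes tested in H929, 19.3% fell and 22.7% rose (42% in all), beside 6 and 1 of these 10. The median log2 fold change of the 10 genes was -1.12, against 0.02 over all genes tested. Both fluvastatin libraries were below both ethanol libraries for 7 of the 10 genes, beside 33.6% of all genes tested, and above them for HSPB1, beside 37.5%. In bulk RNA of a cell line, a change in part of the cells and a smaller change in all of them cannot be told apart.

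Among the HSP70 machinery, HSPA8 was at 4007 and 4503 CPM in H929 ethanol libraries and at 1806 and 1810 CPM in fluvastatin. The groups did not overlap, and HSPA8 was 2.35-fold lower (log2 -1.23 ± 0.16 SE, edgeR adjusted p = 0.000277). HSPH1, which recharges HSP70 by nucleotide exchange, was at 147 and 151 CPM in ethanol and at 53.0 and 59.8 CPM in fluvastatin. It was 2.64-fold lower without overlap (log2 -1.40 ± 0.13, edgeR adjusted p = 3.37e-05). DNAJB1, the J-domain partner that loads substrates on HSP70, was at 89.2 and 79.4 CPM in ethanol and at 47.6 and 42.4 CPM in fluvastatin. Its 1.88-fold decrease was the smallest of the 6 (log2 -0.91 ± 0.18, edgeR adjusted p = 0.00295).

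HSPA1A and HSPA1B, the stress-inducible HSP70 pair, encode near-identical transcripts. Of all 75-base windows, 73.8% of those in the HSPA1A transcript also stand in HSPA1B, so that the division of fragments between them is an estimate. HSPA1B was at 104 and 80.2 CPM in H929 ethanol libraries and at 48.2 and 37.9 CPM in fluvastatin, a 2.14-fold decrease (log2 -1.10 ± 0.39, edgeR adjusted p = 0.0463). HSPA1A was listed at 1.67 and 2.00 CPM in ethanol and at 1.10 and 0.524 CPM in fluvastatin (log2 -1.18 ± 0.76, edgeR adjusted p = 0.242). Both genes were lower in both fluvastatin libraries. Summed to 1 row, the pair changed by log2 -1.10 ± 0.43 in H929 and did not pass the test (edgeR adjusted p = 0.0658). The call of HSPA1B within H929 was kept in 10 of 17 other settings. It was lost with DESeq2 (adjusted p = 0.127), with library size scaling (0.0579) and with a stricter filter on low counts (0.0557). It was also lost without any 1 of the 4 H929 libraries (log2 from -1.28 to -0.90). HSPA1A took 1.40% to 2.41% of the pair's counts in H929 and 24.3% to 33.5% in KMS11.

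HSP90AA1, the inducible HSP90, was at 951 and 1085 CPM in H929 ethanol libraries and at 414 and 506 CPM in fluvastatin. It was 2.21-fold lower without overlap (log2 -1.15 ± 0.13, edgeR adjusted p = 0.000121). HSP90AB1, its constitutive partner and no member of the set, was at 2011 and 2113 CPM in ethanol and at 1057 and 1154 CPM in fluvastatin (log2 -0.90, edgeR adjusted p = 4.54e-05). Both cytosolic HSP90 genes thus fell in H929.

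HSPE1 was at 230 and 272 CPM in H929 ethanol libraries and at 81.4 and 95.5 CPM in fluvastatin. At 2.84-fold (log2 -1.51 ± 0.12, edgeR adjusted p = 1.68e-05) this was the largest decrease of the 10 genes in H929. HSPD1, which encodes the HSP60 chaperonin that HSP10 caps and lies head to head with HSPE1, was at 1536 and 1833 CPM in ethanol and at 744 and 853 CPM in fluvastatin (log2 -1.08, edgeR adjusted p = 7.82e-05). Both parts of the mitochondrial chaperonin thus fell in H929. Reads over the HSPE1-MOB4 readthrough gene, which overlaps HSPE1, were at group means of 2.90 to 7.55 CPM. Counts listed for pseudogenes of HSPE1 came to 0.278% to 0.814% of the counts of HSPE1.

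HSPB1 went the other way. It was at 3.03 and 2.36 CPM in H929 ethanol libraries and at 4.70 and 6.65 CPM in fluvastatin, which is 2.10-fold higher without overlap (log2 1.07 ± 0.34, edgeR adjusted p = 0.029). At these low counts the call of HSPB1 within H929 was lost without the first ethanol library (adjusted p = 0.053), the second ethanol library (0.126) or the second fluvastatin library (0.161).

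HSF1 and BAG3 overlapped between the H929 groups. HSF1 was at 19.7 and 14.6 CPM in ethanol and at 14.7 and 15.2 CPM in fluvastatin (log2 -0.20 ± 0.22, edgeR adjusted p = 0.505). BAG3 was at 16.6 and 11.4 CPM in ethanol and at 13.9 and 11.4 CPM in fluvastatin (log2 -0.15 ± 0.25, edgeR adjusted p = 0.657). Neither HSF1 nor BAG3 gave a call, while 6 chaperone transcripts fell. This does not show that BAG3 stayed unchanged, since with 1 library left out its value ran from -0.40 to 0.15. RNA levels carry no measure of HSF1 protein or its activity. The decreases of HSPA8, HSPH1, DNAJB1, HSP90AA1 and HSPE1 in H929 passed the test in all 17 other settings.

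**Figure D2:**
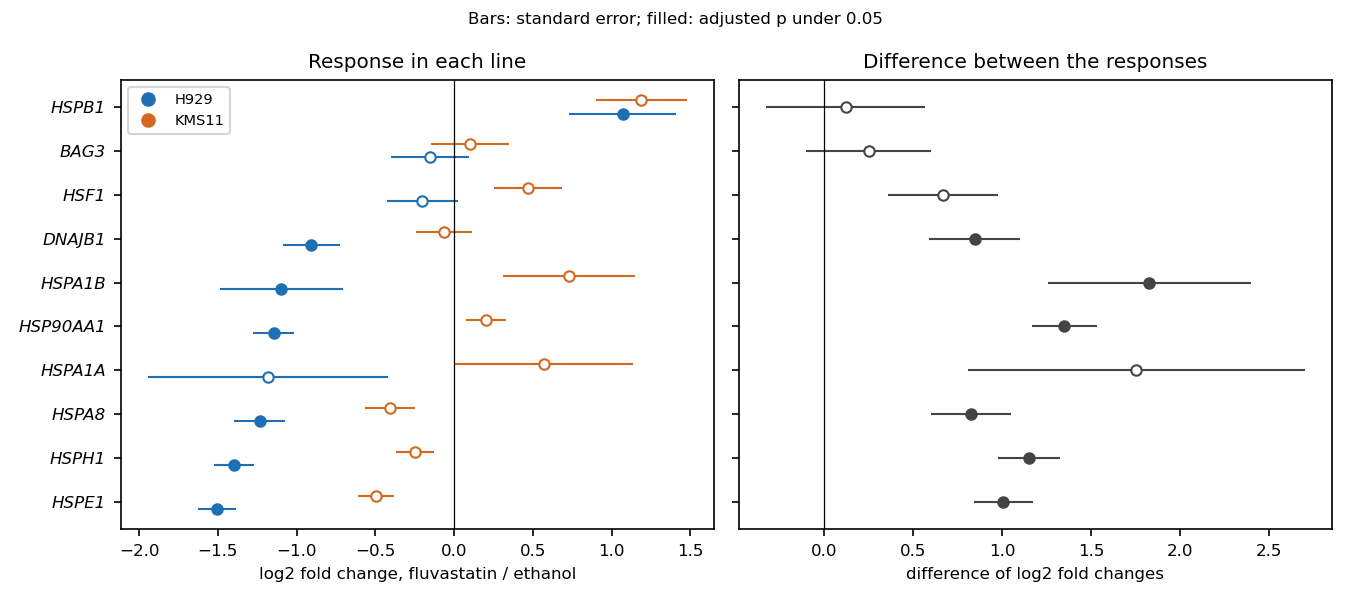
Left, log2 fold change (fluvastatin over ethanol) with its standard error in H929 and KMS11. Right, the difference of the 2 responses as KMS11 minus H929, with filled points for adjusted p under 0.05. In H929 the genes from HSPE1 at -1.51 to DNAJB1 at -0.91 lie below 0, while the KMS11 values run from -0.50 to 1.19 with no point filled.

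In KMS11 cells none of the 10 genes passed the test in edgeR, beside 2.58% higher and 0.533% lower of all genes tested in that line (3.12% in all). At an unadjusted p under 0.05 there were 3, HSPA8, HSPB1 and HSPE1, but the share of all genes at that threshold was not counted. DESeq2 called 3 of the 10, 1 higher and 2 lower, beside 657 higher and 269 lower of all 13129 genes. Limma on log2(TPM + 1) called 0, beside 223 of all genes. The median log2 fold change was 0.15, against 0.00 over all genes tested. Both fluvastatin libraries lay above both ethanol libraries for HSPB1 and HSP90AA1, beside 26.9% of all genes, and below them for HSPE1, beside 26.5%.

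HSPE1 came closest to the threshold in KMS11. It was at 421 and 430 CPM in ethanol and at 284 and 319 CPM in fluvastatin, without overlap (log2 -0.50 ± 0.12, edgeR adjusted p = 0.0502). HSPE1 within KMS11 passed the test in 11 of 17 other settings. HSPB1 was at 11.1 and 11.7 CPM in ethanol and at 34.7 and 17.5 CPM in fluvastatin (log2 1.19 ± 0.29, edgeR adjusted p = 0.0574). Both treated libraries were higher, and the first lay far above the second. Without that library the value of HSPB1 within KMS11 was 0.61 (adjusted p = 0.22), and with trends on GC content and length removed it was 0.49 (adjusted p = 0.102). It passed in 7 of 17 other settings, among them DESeq2 (1.15, adjusted p = 0.00169) and without the second fluvastatin library (1.56, adjusted p = 0.000428).

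HSPA8 was at 4322 and 3287 CPM in KMS11 ethanol libraries and at 3299 and 2439 CPM in fluvastatin (log2 -0.41 ± 0.16, edgeR adjusted p = 0.178). HSPH1 was at 391 and 309 CPM in ethanol and at 310 and 280 CPM in fluvastatin (log2 -0.25 ± 0.12, edgeR adjusted p = 0.263). DNAJB1 was at 80.4 and 60.6 CPM in ethanol and at 79.6 and 55.7 CPM in fluvastatin (log2 -0.06 ± 0.18, edgeR adjusted p = 0.874). The groups overlapped for these 3 genes. HSP90AA1 was at 1625 and 1326 CPM in ethanol and at 1698 and 1700 CPM in fluvastatin (log2 0.20 ± 0.13, edgeR adjusted p = 0.37). BAG3 was at 10.4 and 7.71 CPM in ethanol and at 11.6 and 7.99 CPM in fluvastatin (log2 0.10 ± 0.25, edgeR adjusted p = 0.85).

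For HSF1 and the inducible HSP70 pair, the KMS11 values depended on which fluvastatin library was used. HSF1 was at 22.7 and 25.7 CPM in ethanol and at 41.3 and 25.6 CPM in fluvastatin (log2 0.47 ± 0.21, edgeR adjusted p = 0.238). HSPA1B was at 12.8 and 6.62 CPM in ethanol and at 23.9 and 8.77 CPM in fluvastatin (log2 0.73 ± 0.42, edgeR adjusted p = 0.328). HSPA1A was at 6.47 and 2.90 CPM in ethanol and at 11.3 and 2.79 CPM in fluvastatin (log2 0.57 ± 0.56, edgeR adjusted p = 0.569). The first fluvastatin library was the highest of the 4 for each of these genes, and it is the library with the lower protein-coding share. Without it the value of HSF1 within KMS11 was 0.08, that of HSPA1B within KMS11 was -0.16 and that of HSPA1A within KMS11 was -0.75. Without the second fluvastatin library all 3 passed as higher, HSF1 at 0.73 (adjusted p = 0.0131), HSPA1B at 1.25 (adjusted p = 0.0119) and HSPA1A at 1.23 (adjusted p = 0.0413). HSF1 and HSPB1 have the highest GC content of the 10 genes, 63.88% and 65.24%, and with trends on GC content and length removed the value of HSF1 within KMS11 was -0.08. Whether GC content had a part in these values was not tested.

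**Figure D3:**
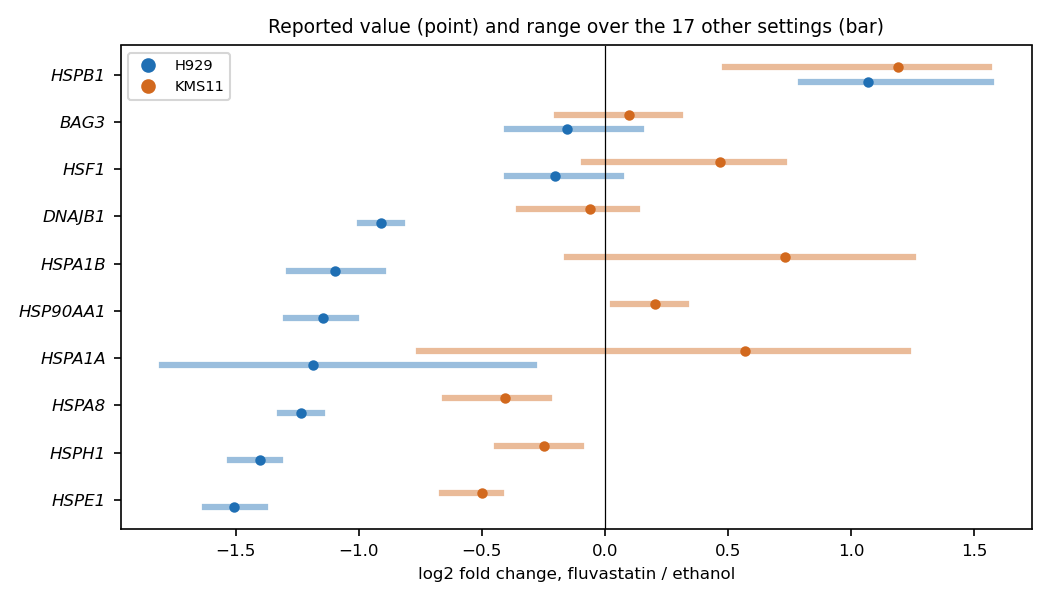
Log2 fold change (fluvastatin over ethanol) of each gene in H929 and KMS11, with the reported value as a point and the lowest to highest value over 17 other settings as a bar. In H929 the bars of HSPE1 (-1.63 to -1.38), HSPH1 (-1.52 to -1.32) and HSPA8 (-1.32 to -1.15) are short, and in KMS11 that of HSPA1A (-0.75 to 1.23) crosses 0.

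The responses of the lines were compared directly as the KMS11 response minus the H929 response. The difference passed the test for 6 of the 10 genes, beside 23.2% of all genes tested, and for all 6 the KMS11 value was the higher one, beside 11.7% of all genes. HSP90AA1 differed by log2 1.35 ± 0.18 (edgeR adjusted p = 0.00123), HSPH1 by 1.15 ± 0.17 (adjusted p = 0.00195) and HSPE1 by 1.01 ± 0.16 (adjusted p = 0.00286). HSPA8 differed by 0.83 ± 0.22 (adjusted p = 0.0262), DNAJB1 by 0.85 ± 0.25 (adjusted p = 0.0385) and HSPA1B by 1.83 ± 0.57 (adjusted p = 0.0448). The differences of HSP90AA1, HSPH1 and HSPE1 passed in all 17 other settings, and that of HSPA1B passed in 9. The summed HSPA1A and HSPA1B pair differed by 1.78 ± 0.62 and did not pass (edgeR adjusted p = 0.0639).

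The other 4 genes gave no call on the difference. HSPB1 differed by log2 0.12 ± 0.45 (edgeR adjusted p = 0.885), BAG3 by 0.25 ± 0.35 (adjusted p = 0.64), HSF1 by 0.67 ± 0.31 (adjusted p = 0.146) and HSPA1A by 1.75 ± 0.95 (adjusted p = 0.205). The standard errors leave room for differences of the size seen for HSPA8. The HSPB1 difference turned to -1.08 (adjusted p = 0.0205) with trends on GC content and length removed.

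Across both lines, with the line as a term, 1 gene rose and 3 fell, beside 6.5% higher and 3.93% lower of all genes tested (10.4% in all). HSPE1 fell by 0.999 on the log2 scale (SE 0.20, edgeR adjusted p = 0.0213), HSPA8 by 0.82 (SE 0.19, adjusted p = 0.0308) and HSPH1 by 0.82 (SE 0.22, adjusted p = 0.0493). HSPB1 rose by 1.14 (SE 0.23, adjusted p = 0.0237). The joint values of DNAJB1 (-0.48, adjusted p = 0.139) and HSP90AA1 (-0.47, adjusted p = 0.236) did not pass. Without any 1 of the 4 H929 libraries none of the 10 passed in this comparison. HSPH1 passed in 8 of 18 other settings and also lost its call without the first KMS11 ethanol library (adjusted p = 0.0588), with library size scaling (0.0558), with the stricter filter (0.0506) and with trends on GC content and length removed (0.0588), and HSPB1 without the second (adjusted p = 0.0525).

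The chaperones around these genes were read from 8 lists with 97 genes, of which 86 could be tested. The lists were written with earlier results of these data known. In H929, 41 of the 86 fell and 6 rose, and the counts by list that follow stand beside 19.3% lower and 22.7% higher of all genes tested. HSP90 and its co-chaperones had 11 of 14 lower and 0 higher, with FKBP4, an immunophilin that binds HSP90, lower by 2.92-fold (log2 -1.55, edgeR adjusted p = 9.41e-06) and its relative FKBP5 lower by 2.13-fold (log2 -1.09). The cytosolic chaperonin TRiC with prefoldin, which folds actin and tubulin, had 9 of 14 lower and 0 higher (median log2 -0.56). Mitochondrial chaperones and proteases had 7 of 11 lower and 0 higher (median -0.53).

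HSP70 co-chaperones and BAG proteins had 5 of 10 lower in H929 and 0 higher. STIP1, which joins HSP70 to HSP90, was lower by 2.22-fold (log2 -1.15, edgeR adjusted p = 3.25e-05), and HSPBP1, a nucleotide exchange factor of HSP70, by 2.13-fold (log2 -1.09, adjusted p = 0.00785). The other cytosolic HSP70, HSP110 and J-domain proteins had 8 of 19 lower and 2 higher. HSPA4L, an HSP110 protein like HSPH1, was lower by 2.31-fold (log2 -1.21, adjusted p = 4.16e-05). HSPA4, a further HSP110 protein, was higher (log2 0.31, adjusted p = 0.0365). DNAJC6, which uncoats clathrin vesicles, rose by 0.37 on the log2 scale (adjusted p = 0.0358). The list of HSF family genes and regulators had 0 of 7 past the test in edgeR, beside 42% of all genes tested. Of the 7, 3 had an unadjusted p under 0.05, a looser threshold that at least those 42% of all genes also met. DESeq2 called 0 of the 7, beside 5136 of all genes tested, and limma called 1, beside 4200.

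A further list of heat shock responsive genes had 4 of 10 higher in H929, beside 22.7% of all genes tested, 1 lower and 5 that did not pass. HSPA13, an HSP70 relative of the microsomes, rose by 1.61-fold (edgeR adjusted p = 0.00164). CRYZ, a quinone reductase, rose by 1.44-fold (adjusted p = 0.00558) and SQSTM1, an autophagy receptor that is also induced by oxidative stress, by 1.34-fold (adjusted p = 0.0236). Of the 9 other small heat shock proteins, IFT25 alone could be tested, and the other 8 had at most 7 expected counts in any library.

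In KMS11, 2 of the 86 list genes fell and 2 rose, beside 0.533% lower and 2.58% higher of all genes tested (3.12% in all). With 4 called, these shares rest on few genes. The median log2 fold change of the 86 genes was -0.15 in KMS11, against 0.00 over all genes tested, and -0.28 in H929, against 0.02. DESeq2 called 3 of the 86 higher and 13 lower in KMS11, beside 657 higher and 269 lower of all genes tested. HSPA4L fell by 0.57 (log2, edgeR adjusted p = 0.0224) and DNAJC2, a J-domain protein of the ribosome, by 0.52 (adjusted p = 0.0486). DNAJB2 rose by 0.86 (adjusted p = 0.0458) and SQSTM1 by 0.94 (adjusted p = 0.00419). HSPA4L, DNAJC2 (log2 -0.63 in H929, adjusted p = 0.00244) and SQSTM1 were called in the same direction in both lines. HSPD1 gave log2 -0.33 (adjusted p = 0.14) and HSP90AB1 -0.15 (adjusted p = 0.318). The count of 4 rose to 16 with DESeq2 and fell to 0 without either KMS11 ethanol library and was 1 without the first and 23 without the second fluvastatin library. The responses of 24 list genes were higher in KMS11 than in H929 and those of 3 were lower, beside 11.7% and 11.5% of all genes tested.

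**Figure D4:**
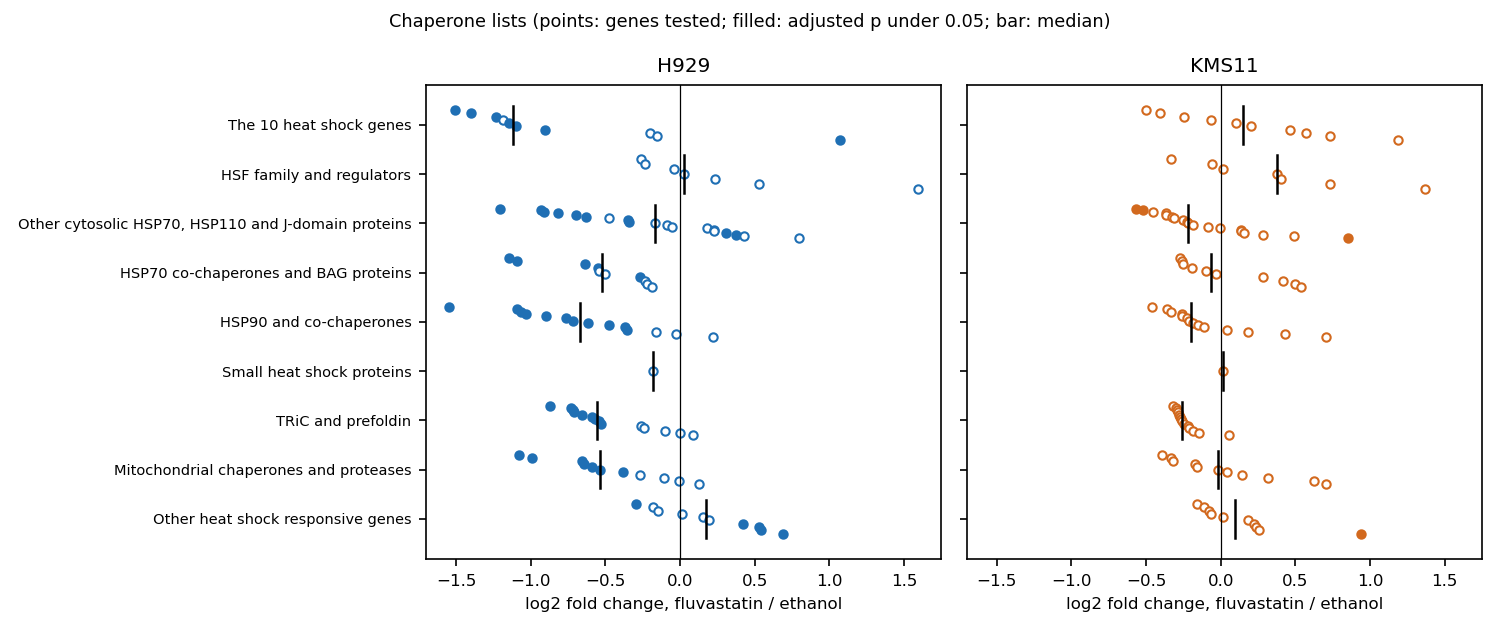
Log2 fold change (fluvastatin over ethanol) of each tested gene by list in H929 (left) and KMS11 (right), with filled points for adjusted p under 0.05 and a bar at the list's median. In H929 the medians of HSP90 and co-chaperones (-0.67), TRiC and prefoldin (-0.56) and mitochondrial chaperones (-0.53) lie to the left of 0, and in KMS11 4 points are filled.

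How alike the genes moved was described by Pearson's r of log2 CPM over the 8 libraries, after each line's mean was taken away. The values share libraries, treatment and depth and carry no test. HSPA8 and HSPH1 had r = 0.97, HSPH1 and HSPE1 r = 0.96, HSPA8 and DNAJB1 r = 0.93, and HSPH1 and HSP90AA1 r = 0.93. HSPA1A and HSPA1B, which share reads, also had r = 0.93. HSPB1 stood against part of these genes, with r = -0.79 to HSPE1, -0.66 to HSPA8 and -0.65 to HSPH1. It had r = -0.45 to HSP90AA1 and -0.44 to DNAJB1, but -0.05 to HSPA1A and 0.08 to HSPA1B. HSF1 had r = -0.04 to HSPE1 and 0.12 to HSPA8, but 0.71 to HSPA1B and 0.63 to BAG3. Among 8853 genes outside the set, the nearest to HSPA8 were GIGYF2, EIF4H and PFKFB3 (r = 0.98 for each). The nearest to DNAJB1 were TEAD4, SH3PXD2A and UBN1 (r = 0.99 for each), and those to HSPH1 were SYNJ2, COPRS and ARL16 (r from 0.993 to 0.995).

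Within a group, DNAJB1, HSPA1B and BAG3 were higher in the library numbered 1 than in that numbered 2 in all 4 groups, which is 3 of the 10 genes beside 12.6% of all genes tested. HSPA1A had this order in 3 of 4 groups and HSPE1 in 0 of 4. The order was noticed after the values were seen, and its cause was not tested.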

How the data were processed

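Stranded total RNA libraries depleted of ribosomal RNA were aligned by the authors to hg38 with STAR 2.5.2b and quantified with RSEM 1.3.0 on GENCODE 26 genes. The authors deposited unnormalized expected counts for each library, and TPM scaled by RSEM for effective length over all genes. Gene names came from GENCODE 44, which holds 57392 of the 58219 identifiers. Tests were run on rounded expected counts using edgeR 4.0.16 (R 4.3.3). DESeq2 1.42.0 and limma 3.58.1 served as alternatives. Of 19683 protein-coding genes, 13129 passed filterByExpr (minimum count 10, total 15). They were scaled by TMM and tested by the quasi-likelihood F test with terms for line and treatment, or from 4 group means, with Benjamini-Hochberg adjustment over all 13129 and a threshold of 0.05. Standard errors are the absolute log2 fold change over the square root of F. The fit was tested on simulated data. Depth was 26702515 to 41910446 counts per library. The variance between replicates was 9.97 to 37.8 times the counting variance (chi-square per degree of freedom), so that replicate spread limits precision.

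All 10 genes are named, with HSPD1, HSP90AB1, the 5 list genes that changed most each way in H929 and up to 3 each way in KMS11 (from a mean log2 CPM of 1 up), and the 3 genes most like HSPA8, DNAJB1 and HSPH1 (from 3 up). Genes and lists were chosen with earlier results of these data known, and HSPA4 was named outside the rule. Of the genes this rule names, 1 is not reported here.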

Additional observations from a re-analysis of the deposited data

Results flagged for a closer look

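The fluvastatin responses of 6 heat shock genes differed between the lines by the test of the difference itself (edgeR, adjusted p under 0.05), each with the higher value in KMS11. The differences (KMS11 minus H929, log2) were 1.35 for HSP90AA1 (adjusted p = 0.00123), 1.15 for HSPH1 (adjusted p = 0.00195), 1.01 for HSPE1 (adjusted p = 0.00286), 0.83 for HSPA8 (adjusted p = 0.0262), 0.85 for DNAJB1 (adjusted p = 0.0385) and 1.83 for HSPA1B (adjusted p = 0.0448). Of these, HSP90AA1, HSPH1 and HSPE1 also passed at 0.01. The differences of HSPA8, DNAJB1 and HSPA1B were lost without KMS11 ethanol replicate 2 (adjusted p = 0.094, 0.127 and 0.137) and without H929 fluvastatin replicate 2 (0.0646, 0.111 and 0.115). That of HSPA8 was also lost without H929 ethanol replicate 2 (0.0696), those of DNAJB1 and HSPA1B without H929 ethanol replicate 1 (0.104 and 0.109) and KMS11 fluvastatin replicate 1 (0.0633 and 0.0904), and that of HSPA1B without H929 ethanol replicate 2 (0.0502). With limma on log2(TPM + 1) HSPA8 (0.106), DNAJB1 (0.138) and HSPA1B (0.0754) did not pass, nor did HSPA1B with DESeq2 (0.0949) or library size scaling (0.0526), or the sum of HSPA1A and HSPA1B (1.78, adjusted p = 0.0639).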

How the results depend on the processing

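The numbers of genes called across both lines (4), in H929 (7), in KMS11 (0), in the difference (6) and in ethanol (6) were recomputed under each alternative. Across both lines the count was 0 at an adjusted p under 0.01, with the replicate block and with no cell line term. In KMS11 it was 3 with DESeq2, 2 with median-of-ratios scaling or no filter, 1 with the stricter filter or with GC content and length trends removed, and 4 with the replicate block. In the difference it was 3 at 0.01 and 3 with limma. With 1 library left out the counts ran from 0 to 5 across both lines, 5 to 8 in H929, 0 to 5 in KMS11, 3 to 8 in the difference, 5 to 8 in ethanol and, of the 22 list genes called across both lines, 1 to 26. Those 22 were 2 higher and 20 lower of the 86 list genes tested, beside 6.5% higher and 3.93% lower of all genes tested. The count of list genes came to 0 at 0.01, with the replicate block and with no line term, 34 with DESeq2 and 37 with the trends removed. The 4 list genes called in KMS11 came to 1 at 0.01, 2 with library size scaling, all annotated genes or limma, 13 with no filter, 16 with DESeq2, 21 with the trends removed and 26 with the replicate block. HSPA1A and HSPA1B as 1 gene in H929 passed with the replicate block (log2 -1.10, adjusted p = 5.87e-05) and ranged from -1.29 to -0.91 with 1 library left out. The block could not be fitted for the lines in ethanol. Deviations of libraries with the same number had r = 0.774 in H929 and -0.0782 in KMS11, and the numbers were not taken as pairs. The block gave 8 calls in H929 and 7 in the difference.

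Directions reversed only for genes without a call in the reported fit of that comparison, as follows. With the trends removed HSF1 was -0.0099 across both lines, 0.065 in H929, -0.085 in KMS11 and -0.15 in the difference, BAG3 was -0.20 in KMS11 and -0.14 in the difference, and HSPB1 was -1.08 in the difference. With limma HSPA8 and DNAJB1 in ethanol were 0.40 and 0.23, BAG3 in KMS11 -0.021 and the HSPB1 difference -0.046. With no line term HSPA1A was 0.27 across both lines. With 1 library left out, BAG3 ran from -0.18 to 0.12 across both lines, -0.40 to 0.15 in H929, -0.19 to 0.31 in KMS11 and -0.048 to 0.50 in the difference. HSF1 ran from -0.10 to 0.29 across both lines and -0.40 to 0.027 in H929, HSPA1A from -0.98 to 0.18 across both lines and -0.75 to 1.23 in KMS11, HSPA1B from -0.75 to 0.094 and -0.16 to 1.25, and their sum in KMS11 from -0.32 to 1.25. DNAJB1 in KMS11 ran from -0.35 to 0.13, HSPA8 in ethanol from -0.36 to 0.034 and the HSPB1 difference from -0.43 to 0.53. The cause was not tested.

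Of all 13129 genes, 1370 across both lines became 161 at 0.01, 158 with the block, 4 with no line term, 2556 with DESeq2 and 3153 with the trends removed. The 5511 in H929 became 3538 at 0.01. The 409 in KMS11 became 129 at 0.01, 223 with limma, 926 with DESeq2, 1098 with no filter, 1637 with the block and 1752 with the trends removed. The 3048 differences became 1258 at 0.01, 2035 with limma and 4623 with the trends removed. The share of calls that were higher went from 62.3% to 29.4% with limma and 46.2% with the trends removed across both lines, from 82.9% to 57% and 51.4% in KMS11, from 50.6% to 37.2% in the difference with limma, and from 49.5% to 72.8% in ethanol with limma.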
